A study of Homo sapiens with 5 samples.

Results

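Replication-dependent histone genes encode the H1, H2A, H2B, H3 and H4 proteins that package newly copied DNA. The microarrays of the miR-122 experiment measured 41 of them, among 11963 genes, with a probe set of their own. The rule for members uses gene symbols and no measured value: a probe set was taken where the annotation of the platform gave it a single gene symbol of the replication-dependent histone families. This gave 42 probe sets for 6 H1, 8 H2A, 12 H2B, 7 H3 and 8 H4 genes. H2BC5 had a pair of probe sets, and each gene is represented by the probe set with the highest mean over all arrays.

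RNA came from HES2 cells, an established hESC line that had been kept on foreskin-derived feeder cells and then differentiated spontaneously for 2 weeks without feeder cells and bFGF. The cultures had been transduced with lentiviral vectors. For 2 arrays (wt replicates 1 and 2) the vector encoded the wt miRNA. For 3 arrays (mutant replicates 1 to 3) it encoded the control, a mutant miR-122 whose seed sequence was changed. The paper gives only a lower limit for the share of transduced cells, so some cells in each culture may have lacked a vector. How far such cells reduced the differences was not tested. The vectors expressed the miRNA from the H1 promoter, a promoter of RNA polymerase III named after the H1 RNA gene and unrelated to histone H1, and a red fluorescent reporter from a separate promoter. Separate cultures without transduction or with the empty vector were not analysed here, so the comparison is between the miRNAs and gives no level without a vector. The values are log2 values after RMA normalization by the authors, and differences are wt minus mutant miR-122-expressing cells.

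Histone genes of this kind are switched on as cells enter S phase, when DNA and chromatin are doubled together. Their transcripts have no introns and normally end in a stem-loop in place of a poly(A) tail. The stem-loop binding protein SLBP and the U7 snRNP make that end, while NPAT, a substrate of cyclin E and CDK2, activates transcription at the histone gene clusters. Some members can also give polyadenylated transcripts, which are known from differentiated cells. Arrays of the 3' expression type are usually labelled from an oligo(dT) primer, which favours polyadenylated RNA. The labels name only the Affymetrix protocol, so how far stem-loop transcripts were measured was not tested.

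The mature sequence of wt miR-122 is shown first because it is the agent compared, with its seed (bases 2 to 8) in capitals, from RefSeq on GRCh38.p14 (chr18:58451088-58451109, plus strand).
hsa-miR-122-5p: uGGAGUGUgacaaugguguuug

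The promoters of the members carry the elements by which these genes are known to be read. The sequences of 38 of the 41 members were found in RefSeq, and motifs were searched on both strands from 250 bases before to 50 bases after the first listed start of a gene. CCAAT, the box bound by the factor NF-Y, was present in 33 of 38 promoters, and in 35.7% of the promoters of all genes. It was in every H1, H2A, H2B and H3 promoter searched but in only 2 of 7 H4 promoters. TATAAA was present in 25 of 38, against 12% of all promoters. The octamer ATTTGCAT, read by the factor OCT1 at H2B genes, was found in 8 of 11 H2B and 6 of 8 H2A promoters, in no H1, H3 or H4 promoter, and in 1.8% of all. AAACACA, the H1 box, stood in 6 of 6 H1 promoters and in 5.76% of all. GGTCCG, part of the element bound by HINFP at H4 genes, stood in 6 of 7 H4 promoters and in 11.2% of all. It was also in 1 of 11 H2B and 1 of 6 H3 promoters. A match is a run of letters in the window and not a test of binding.

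The 150 bases before the start of an H1 pair and an H2B pair follow because the members of each pair differed in opposite directions on these arrays, and H4C11 is added as the H4 gene with the highest mean value. Capitals mark the motifs above on either strand, sequences run 5' to 3' on the strand of the gene, and the build is GRCh38.p14.
H1-2 (chr6:26056471-26056620, minus strand): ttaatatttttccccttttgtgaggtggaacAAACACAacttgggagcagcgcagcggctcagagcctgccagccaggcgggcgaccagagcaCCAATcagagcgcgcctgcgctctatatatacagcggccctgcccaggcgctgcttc
H1-3 (chr6:26234988-26235137, minus strand): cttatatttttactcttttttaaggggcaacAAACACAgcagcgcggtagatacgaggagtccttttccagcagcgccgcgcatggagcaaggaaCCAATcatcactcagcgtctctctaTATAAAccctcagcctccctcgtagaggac
H2BC12 (chr6:27146859-27147008, minus strand): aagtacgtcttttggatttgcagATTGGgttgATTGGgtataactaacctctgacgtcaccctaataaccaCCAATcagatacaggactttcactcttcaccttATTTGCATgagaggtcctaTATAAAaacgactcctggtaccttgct
H2BC14 (chr6:27814872-27815021, plus strand): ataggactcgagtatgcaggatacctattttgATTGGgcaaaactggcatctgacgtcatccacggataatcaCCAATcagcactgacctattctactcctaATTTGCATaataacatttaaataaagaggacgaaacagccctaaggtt
H4C11 (chr6:27823942-27824091, plus strand): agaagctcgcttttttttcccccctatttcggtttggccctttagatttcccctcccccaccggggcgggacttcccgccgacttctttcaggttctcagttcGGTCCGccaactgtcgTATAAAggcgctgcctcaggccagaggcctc
Within these 150 bases, H1-2 and H1-3 share the H1 box and the CCAAT box, and H2BC12 and H2BC14 share the octamer and the CCAAT boxes.

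Between cells with wt and with mutant miR-122, no histone gene of the 41 reached an adjusted p under 0.05 in limma. The smallest adjusted p was 0.187, that of H1-2. Over all genes tested, 0.267% were higher and 0.234% lower at this threshold. At an unadjusted p under 0.05, 2 members were higher, H1-3 and H2BC14, where 8.84% of all genes were. At the same threshold 3 members were lower, H1-2, H2BC12 and H2BC12L, where 6.87% of all genes were. These were 4.88% and 7.32% of the members, the first below and the second close to the share of all genes. Without adjustment, the methods' t-test gave the same 2 members higher, 1 lower (H2BC12L), and no member under 0.05 once adjusted.

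The members as a group lay close to the rest of the array in median and quartiles. Their median log2 difference was 0.02, with quartiles of -0.05 and 0.09, and that of all genes was 0.03, with quartiles of -0.07 and 0.11. Of the 41 members, 22 had a higher mean in wt miR-122-expressing cells and 19 a lower mean, where 58.4% of all genes were higher. Both wt arrays lay above all mutant arrays in 2 members (4.88%), a smaller share than the 21.5% of all genes. They lay below them in 5 members (12.2%), against 13.4% of all genes. The differences of 36 of the 41 members, and of 81.5% of all genes, lay between -0.2 and 0.2. The 95% interval of the difference lay within -0.5 to 0.5 for 38 of the 41 members and included 0 for 36, and it included 0 for 84.3% of all genes.

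**Figure D1:**
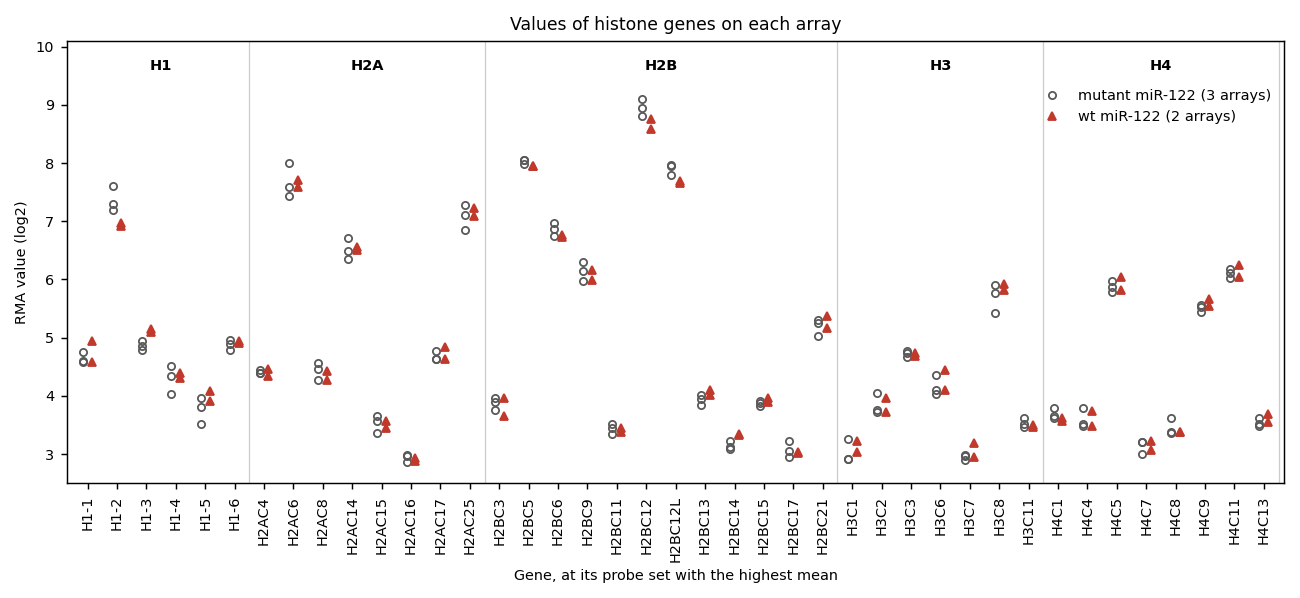
RMA values (log2, y axis) of the 41 histone genes (x axis) by class, with open circles for the 3 mutant and red triangles for the 2 wt miR-122 arrays. Both wt arrays lie outside the range of the mutant arrays in 7 genes, below it in H1-2, H2BC5, H2BC12, H2BC12L and H4C1 and above it in H1-3 and H2BC14.

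H1 linker histones bind the DNA between nucleosomes, and they held the largest differences in both directions. H1-2, a linker histone found in most somatic cells, was at 7.61, 7.30 and 7.20 in mutant replicates 1 to 3 and at 6.97 and 6.92 in wt replicates 1 and 2. All mutant arrays were above both wt arrays, and mutant replicate 1 was the highest. The means were 7.37 ± 0.21 (SD, n = 3) with the mutant and 6.95 ± 0.04 (SD, n = 2) with the wt miRNA, which is a wt minus mutant difference of -0.42 (SE 0.12, limma adjusted p = 0.187). This corresponds to a value 1.34-fold higher in mutant cells, and the 95% interval of the difference ran from -0.70 to -0.14. Leaving out an array gave differences of -0.51 to -0.30, with the smallest without mutant replicate 1.

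H1-3, a linker histone gene of the same cluster, was at 4.79, 4.94 and 4.85 in mutant and 5.11 and 5.15 in wt miR-122-expressing cells. Both wt arrays were above all mutant arrays. The log2 difference was 0.26 (SE 0.08, limma adjusted p = 0.199), with a 95% interval of 0.08 to 0.45. H1-5, another linker histone gene, was at 3.97, 3.52 and 3.82 in mutant and 4.08 and 3.92 in wt cells. Here wt replicate 2 lay within the mutant range, and the log2 difference of 0.23 had a larger SE of 0.13. It was 0.11 with mutant replicate 2 left out and 0.15 with wt replicate 1 left out. The other 3 genes of the class, H1-1, H1-4 and H1-6, had differences of 0.12, 0.05 and 0.05 with overlapping groups. Of the 6 H1 genes, 5 had higher means in wt cells, and the median difference was 0.09, or 0.04 with wt replicate 2 left out, where H1-1 (4.59 in wt replicate 1, and 4.58 to 4.76 in mutant) was also lower in wt than the mutant mean. H1-6 is known as a linker histone of the testis and was listed at 4.78 to 4.96, and whether a value in this range stands above background was not tested.

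H2A and H2B form the dimers on the outer part of the nucleosome core. None of the 8 H2A genes passed at an unadjusted p under 0.05, and all had overlapping groups. Their differences lay between -0.08 for H2AC8 and 0.08 for H2AC25, with a median of -0.01, which lay between -0.07 with mutant replicate 3 left out and 0.02 with mutant replicate 2 left out. H2AC6, the H2A gene with the highest mean value, was at 7.59, 8.001 and 7.43 in mutant and 7.72 and 7.59 in wt miR-122-expressing cells. Mutant replicate 2 was high and mutant replicate 3 low, with both wt arrays between them. The log2 difference was -0.02 (SE 0.15, limma adjusted p = 0.965), and it became 0.14 with mutant replicate 2 left out and 0.04 with wt replicate 2 left out.

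Among 12 H2B genes, 8 had lower means in wt miR-122-expressing cells, and the median difference was -0.05. H2BC12 was at 8.95, 8.81 and 9.09 in mutant and 8.59 and 8.76 in wt cells. The groups did not overlap, although wt replicate 2 lay close to mutant replicate 2. The log2 difference was -0.27 (SE 0.10, limma adjusted p = 0.292), with a 95% interval of -0.51 to -0.03. H2BC12L, a near copy of H2BC12 on another chromosome, was at 7.94, 7.80 and 7.96 in mutant and 7.66 and 7.68 in wt cells. Both wt arrays were again below all mutant arrays, with a log2 difference of -0.23 (SE 0.08, limma adjusted p = 0.260). The probe set of H2BC12L ends in _x_at, the mark of the manufacturer for probes that may bind other transcripts, so whether the signals of these genes are separate is uncertain.

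H2BC14 was the H2B gene with the largest difference in the other direction. It was at 3.12, 3.22 and 3.09 in mutant and 3.33 and 3.34 in wt miR-122-expressing cells, with wt above mutant on every array. The log2 difference was 0.19 (SE 0.08, limma adjusted p = 0.311) at a mean value at percentile 7.08 of all probe sets, and no detection call was used. H2BC5 was measured by a pair of probe sets. The brighter one was at 8.06, 8.05 and 7.98 in mutant and at 7.95 and 7.95 in wt cells, below the mutant range on both arrays but by little. The differences of the pair were -0.08 and -0.10. The other 8 H2B genes, H2BC3, H2BC6, H2BC9, H2BC11, H2BC13, H2BC15, H2BC17 and H2BC21, had overlapping groups and differences between -0.12 and 0.12.

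**Figure D2:**
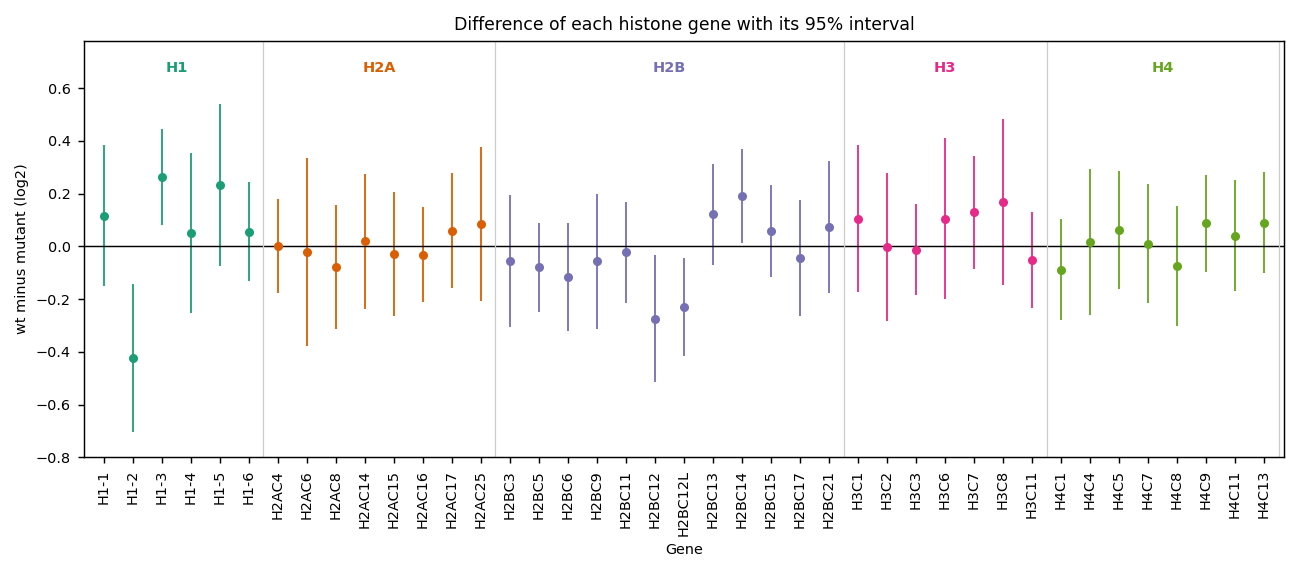
Difference of each histone gene (log2, wt minus mutant, y axis) by gene (x axis), with its 95% interval from limma as a bar and the classes in colours. The interval excludes 0 in 5 genes, below 0 in H1-2, H2BC12 and H2BC12L and above 0 in H1-3 and H2BC14.

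H3 and H4 form the tetramer at the centre of the nucleosome, and neither class held a gene at an unadjusted p under 0.05. The 7 H3 genes had differences between -0.05 for H3C11 and 0.17 for H3C8, with a median of 0.10. H3C8 was at 5.91, 5.76 and 5.43 in mutant and 5.81 and 5.92 in wt miR-122-expressing cells. The difference of 0.17 (SE 0.14, limma adjusted p = 0.615) had overlapping groups, with mutant replicate 3 the lowest array. It was 0.03 with that array left out and 0.27 with mutant replicate 1 left out. The median of the class was -0.03 without wt replicate 2. The 8 H4 genes had differences between -0.09 for H4C1 and 0.09 for H4C13, with a median of 0.03. That median was -0.02 with mutant replicate 3 or wt replicate 1 left out, -0.01 with wt replicate 2 left out and 0.07 with mutant replicate 1 left out. H4C11 was at 6.18, 6.11 and 6.02 in mutant and 6.05 and 6.25 in wt cells, which is a wt minus mutant difference of 0.04 (SE 0.09, limma adjusted p = 0.878). Both wt arrays were below all mutant arrays for H4C1 alone among these genes, at 3.613 to 3.79 in mutant and 3.58 and 3.612 in wt cells, a gap far below the SE.

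The coding sequences of these genes are so alike that many probe sets cannot name a single gene. Beside the 42 probe sets of the members, 20 probe sets name several histone genes, and none of the 20 had an adjusted p under 0.05. The brightest of those standing for 14 H4 genes was at 10.17, 9.92 and 9.71 in mutant and 9.98 and 9.89 in wt miR-122-expressing cells. The mutant arrays spread on both sides of the wt arrays, and the log2 difference was 0.00 (0.000962, SE 0.13), with a 95% interval of -0.30 to 0.30. The brightest probe set of H2AC18 and H2AC19 gave -0.10 (SE 0.09). The largest difference of the 20 was -0.39 (SE 0.20) on a probe set of 5 H2B genes, where mutant replicate 1 stood at 4.34 and the other arrays lay between 3.48 and 3.801. Of the 20, only a probe set of 10 H3 genes passed at an unadjusted p under 0.05. At that p, 8.84% of all genes were higher and 6.87% lower. This probe set was at 4.13, 4.07 and 3.93 in mutant and 4.32 and 4.25 in wt cells. The difference was 0.24 (SE 0.09, limma adjusted p = 0.260).

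Most members gave low values on this platform. The mean value of 33 of the 41 was below the median of all probe sets, 6.35. The 8 at or above it were H1-2, H2AC6, H2AC14, H2AC25, H2BC5, H2BC6, H2BC12 and H2BC12L, and 6 of them had lower means in wt miR-122-expressing cells. Their median difference was -0.10, against 0.01 for all 6885 genes at or above that level, and 3 of the 8 were lower at an unadjusted p under 0.05, where 8.35% of those genes were. Both wt arrays were below all mutant arrays in 4 of the 8, where 16.7% of those genes were. The probe sets of H2AC14, H2BC5, H2BC6 and H2BC12L end in _x_at and that of H2AC6 in _s_at. Whether the 8 signals are separate is therefore uncertain. The 33 dimmer members had a median difference of 0.051, beside 0.045 for all 5078 dimmer genes, and 2 of them were higher at an unadjusted p under 0.05, where 9.14% of those genes were. The members above and below this level were not compared by a test.

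**Figure D3:**
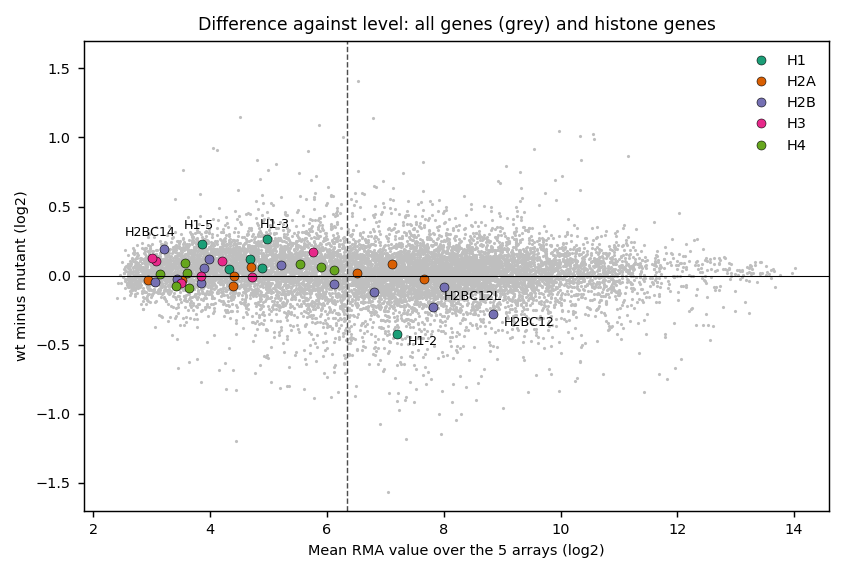
Difference (log2, wt minus mutant, y axis) against the mean RMA value over the 5 arrays (log2, x axis) for all 11963 genes in grey and the 41 histone genes in the colours of their class. The dashed line is the median value of all probe sets, 6.35, and of the 8 histone genes to its right 6 lie below 0.

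Neighbours of the members with the largest differences had differences nearer 0 along the chromosome. These members were picked for the size of their difference, so this follows largely from the choice. An effect of position was not tested. In RefSeq on GRCh38.p14, 38 of the members lie on chromosome 6, 2 on chromosome 1 and H2BC12L on chromosome 21. Along chromosome 6, H1-2 had the lowest difference, -0.42, between H3C3 at -0.01 and H1-6 at 0.05. H1-3, at 0.26, followed H3C6 at 0.10 and preceded H4C7 at 0.01. H2BC12, at -0.27, stood between H2BC11 at -0.02 and H4C9 at 0.09. Some members that share promoter letters also spread. The 8 H2B genes with the octamer ranged from -0.27 for H2BC12 to 0.19 for H2BC14, with a median of -0.05. The 3 H2B genes searched that lack it ranged from -0.08 to 0.12, with a median of 0.06. The 6 H1 genes, all with the H1 box, ranged from -0.42 to 0.26. Sets with and without a motif were not compared by a test. Other sets that share promoter letters were narrower: the 6 H2A genes with the octamer ranged from -0.08 to 0.06, and the 6 H4 genes with GGTCCG from -0.07 to 0.09.

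**Figure D4:**
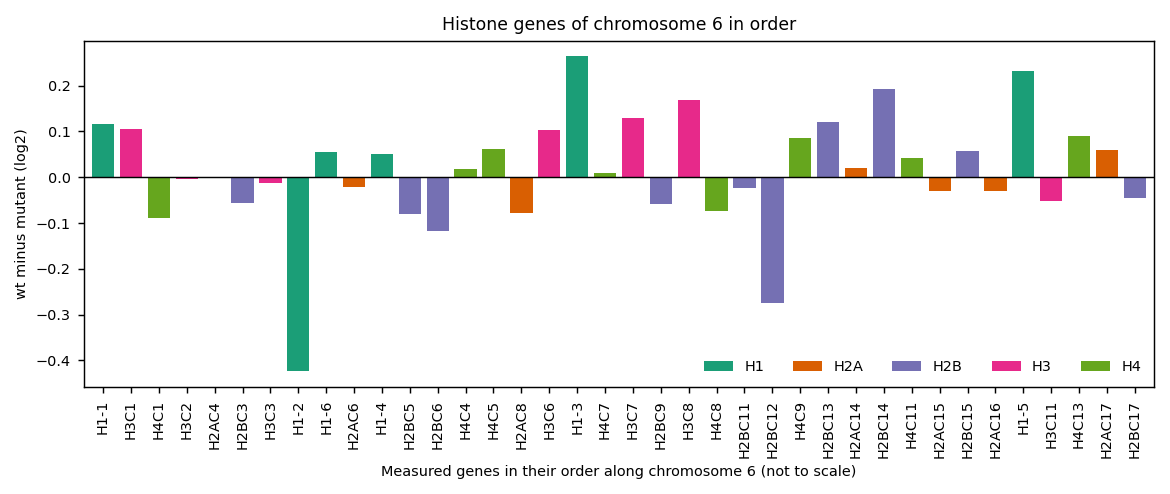
Difference (log2, wt minus mutant, y axis) of the 38 histone genes of chromosome 6 in the order in which they lie (x axis, not to scale), with bars from 0 coloured by class. The largest bars, H1-2 and H2BC12 below 0 and H1-3 and H1-5 above it, each stand between bars closer to 0, which follows largely from picking the largest.

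Other genes were grouped by what they do to histone transcripts and proteins. Of 16 measured genes for transcription and stem-loop processing, none passed at either threshold, and the median difference was 0.02. SLBP was at 9.40, 9.39 and 9.41 in mutant and 9.49 and 9.35 in wt miR-122-expressing cells, which is a wt minus mutant difference of 0.02 (SE 0.08). NPAT gave 0.14 (SE 0.09), and the smallest p of this list belonged to HINFP, at 0.18 (SE 0.09, limma adjusted p = 0.409). Of 10 measured replication-independent variants, none passed after adjustment, and 2 were higher at an unadjusted p under 0.05 (8.84% of all genes), H2AP and CENPA, the variant of centromeres. CENPA gave a log2 difference of 0.20 (SE 0.08), H2AZ1, the variant at promoters, -0.01 (SE 0.08), and H2AJ, known from senescent cells, -0.39 (SE 0.18). Of 19 histone chaperones, none passed after adjustment and 16 had higher means (58.4% of all genes), with a median difference of 0.08. At an unadjusted p under 0.05, 2 chaperones were higher (8.84% of all genes) and 0 lower (6.87%). Both wt arrays lay above all mutant arrays in 8 of the 19 (21.5% of all genes). HJURP, the chaperone of CENPA, gave the largest, 0.36 (SE 0.08).

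Genes of DNA replication and of mitosis, which are also tied to the cell cycle, had mostly higher means with the wt miRNA, which was not so for the histone genes. Of 41 measured S-phase genes, 39 had higher means, 12 were higher and none lower at an unadjusted p under 0.05, and none passed after adjustment. Of all genes, 58.4% had higher means, and 8.84% were higher and 6.87% lower at that p. The S-phase median difference was 0.16, beside 0.02 for the 41 histone genes and 0.03 for all genes. ORC1, a subunit of the origin recognition complex, was at 6.90 to 6.94 in mutant and 7.24 to 7.27 in wt cells, which is a wt minus mutant difference of 0.34 (SE 0.07). PCNA, the sliding clamp of replication, gave 0.13 (SE 0.09), and PRIM1, a primase subunit, 0.36 (SE 0.09). Of 25 mitosis genes, 25 had higher means, 17 were higher at an unadjusted p under 0.05 and none passed after adjustment, with a median of 0.23, where the same shares of all genes (58.4% and 8.84%) apply. Among them NUSAP1, a spindle protein, gave 0.37 (SE 0.09). The lists also differed in level, with a median percentile among all probe sets of 23.67 for the histone genes, 80.59 for S phase and 90.01 for mitosis. The 8 histone genes at or above the median level had a median difference of -0.10. How far stem-loop transcripts were measured is also unknown. The difference between the lists was not tested, nor was the part of level or labelling in it. By array, the median deviation of the 41 histone genes from their means was 0.06, -0.02 and -0.08 on mutant replicates 1 to 3 and -0.03 and 0.01 on wt replicates 1 and 2. That of the S-phase genes was -0.07, -0.10 and -0.04 on the mutant and 0.15 and 0.05 on the wt arrays, so the wt arrays stood above the mutant arrays for S phase and among them for the histone genes. The S-phase median ranged from 0.12 to 0.22 when an array was left out, that of mitosis from 0.20 to 0.27 and that of the histone genes from -0.01 to 0.04.

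**Figure D5:**
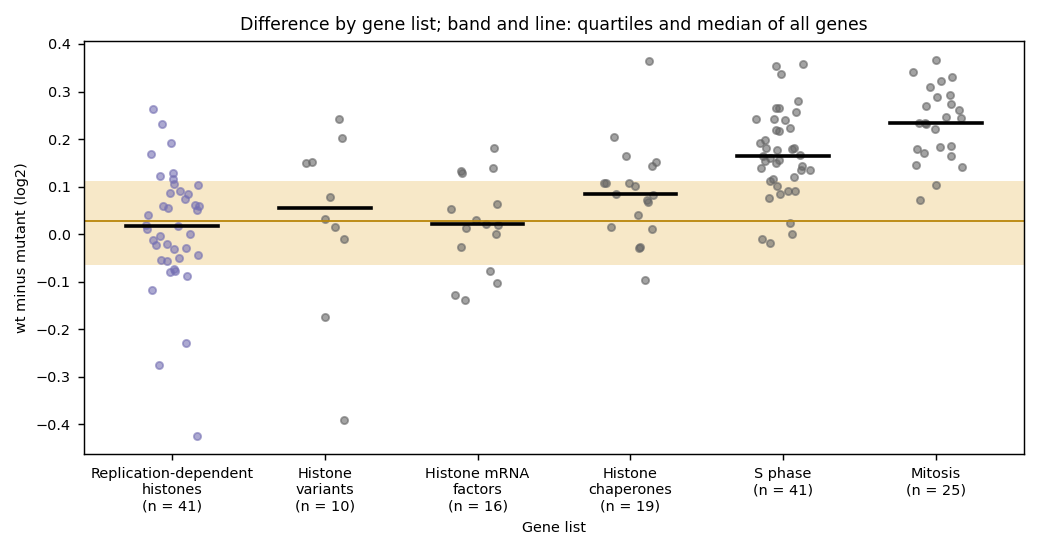
Difference (log2, wt minus mutant, y axis) of each gene in 6 lists (x axis), with the median of a list as a black bar. The band and line give the quartiles, -0.07 and 0.11, and the median, 0.03, of all genes; the medians are 0.02 for the histone genes, 0.16 for S phase and 0.23 for mitosis.

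Markers of cell types differed between the groups as well. The marker lists were written with earlier results of these data known. The paper had also named NANOG and SOX2, which are among the hESC markers, from these arrays. Counts set beside all genes therefore describe these lists and are no independent support. Of 19 measured markers of undifferentiated hESC, 19 had higher means in wt miR-122-expressing cells, 17 were higher at an unadjusted p under 0.05 (8.84% of all genes) and 7 rose at an adjusted p under 0.05 from limma (0.267% of all genes). The sum of their values on the linear scale was 13077 to 14768 on the mutant and 18724 to 19045 on the wt arrays. Of 25 fibroblast and mesenchymal markers, 18 had lower means, 15 were lower at an unadjusted p under 0.05 (6.87% of all genes) and none passed after adjustment. Both wt arrays were below all mutant arrays in 13 of them (13.4% of all genes), with sums of 43845 to 51636 on the mutant and 34055 to 35780 on the wt arrays. Of 15 trophoblast markers, 7 were lower and 1 higher at an unadjusted p under 0.05, and 4 fell and none rose after adjustment (0.234% and 0.267% of all genes), with sums of 7085 to 8680 and 6329 to 6416. On the linear scale, such sums weigh the brightest genes most. Higher means in wt cells were seen for 7 mesenchymal and 2 trophoblast markers, where 58.4% of all genes had them. No detection call was used. Whether dim markers, such as CYP19A1 at 3.20 to 3.51 over the arrays, stand above background was not tested. The part of these shifts in the differences of H1-2, H2BC12, H2BC12L, H1-3 and H2BC14, and in those of the S-phase and mitosis genes, was not tested. In such bulk samples, fewer cells of a type and less RNA per cell cannot be told apart.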

How the data were processed

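RNA of HES2 cells was measured on 5 Affymetrix expression arrays, 2 of wt and 3 of mutant miR-122-expressing cells, grouped by the sample titles. The deposited values are log2 values, which the authors normalized with RMA, per the labels and methods; scanner files were not used here, and no detection calls were used. Of 22277 probe sets 62 are controls, and the other 22215 entered a linear model per probe set (limma 3.58.1, lmFit and eBayes, R 4.3.3) whose single factor was the group, with Benjamini-Hochberg adjustment over all of them and a threshold of 0.05. A single gene was assigned to 19064 probe sets by GEO's platform annotation, several to 1043, and 2108 are unnamed here; symbols of 19052 were looked up by Entrez ID in RefSeq. Lists were described at each gene's probe set with the highest mean. No test was run over a list.

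The median of an array lay between 6.32 and 6.36, and correlations between arrays between 0.995 and 0.997. The number of arrays limits the precision (median SE of a probe set 0.088; 3 residual and 4.87 prior degrees of freedom), and an exact permutation test of 3 against 2 arrays cannot give a two-sided p below 0.1. The methods speak of independent experiments but do not say whether each came from a separate transduction. The p-values from limma rest on the spread between these experiments, moderated over all probe sets. They may not cover differences between separately transduced cultures.

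Members, lists and tests were chosen with earlier results of these data known. Array values are given for the member with the highest mean in each class, for members at an unadjusted p under 0.05 and for the 3 highest and 3 lowest differences, and from other lists for up to 4 genes with the smallest p or past the adjusted threshold and for SLBP, NPAT, PCNA and H2AZ1. Values of H2BC5 and H4C1 were added after they were seen. From these the text gives a selection. H3-3B, also to be given, had no single-gene probe set used here, and a further gene is not reported here. Motifs, and the promoters shown, were chosen after the values were seen. Figures were drawn with matplotlib 3.10.9.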

Additional observations from a re-analysis of the deposited data

How the results depend on the processing

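No histone gene passed at an adjusted p under 0.05 in any setting but one, and the median difference of the members stayed between -0.01 and 0.05 except where probe sets below the median level were left out. That setting left 8 members, with a median of -0.10, H1 at -0.42 (H1-2 alone), H2B at -0.17 and 0 members higher at an unadjusted p under 0.05, and gave 62 higher and 97 lower among the probe sets kept. The replicate block took same-numbered arrays as pairs, which the methods do not state, set mutant replicate 3 aside and left 1 residual degree of freedom. With it, 364 probe sets were higher and 531 lower after adjustment, in place of 43 and 42, and 1 histone gene was lower, H1-2 (log2 difference -0.51, adjusted p = 0.00739), which was also the 1 member lower at an unadjusted p under 0.05. The deviations of same-numbered arrays from their group means correlated at 0.147 and 0.123, over only a pair of numbers. An intensity trend with a robust prior gave 137 probe sets higher and 183 lower. The methods' t-test gave 0 higher and 0 lower after adjustment, and 1 member lower without it, H2BC12L.

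With 1 of the 5 arrays left out in turn, 0 to 3 probe sets were higher and 0 to 0 lower after adjustment. At an unadjusted p under 0.05, 1 to 2 members were higher and 1 to 3 lower, and H1-2 was lower in all 5. H2BC12 was lost without mutant replicate 1 or 3 or wt replicate 1, H2BC12L in these and without wt replicate 2, H2BC14 in the same 4, and H1-3 without wt replicate 2; H1-5, H1-1 and H3C7 were each higher in 1 fit. The median of the members ranged from -0.01 to 0.04, that of H2B from -0.0641 to 0.0226 (highest without mutant replicate 1) and that of H3 from -0.0318 (without wt replicate 2) to 0.139. Those of H1 (0.04 to 0.13), H2A (-0.07 to 0.02) and H4 (-0.02 to 0.07) moved as well, H2A and H4 across 0. H2AC6 ranged from -0.142 to 0.142, at 0.142 without mutant replicate 2 and 0.04 with wt replicate 2 left out. H4C11 ranged from -0.0584 (wt replicate 2 left out) to 0.141, and was -0.000417 with the replicate block and equally with mutant replicate 3 left out. The causes were not tested. The other settings were leaving out probe sets ending in _x_at or _s_at, array weights, centring each array, and averaging the probe sets of a gene. With these, the median of the members stayed above 0 and H1-2, H1-3, H2BC12 and H2BC14 had unadjusted p under 0.05; H2BC12L did too wherever its probe set was kept.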
